A study of Rattus norvegicus with 10 samples.

Results

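Granule neurons are the principal excitatory cells of the dentate gyrus. In single-nucleus RNA sequencing (snRNA-seq), their nuclei were sorted here into types by a rule on chosen marker genes. The type described here is defined by genes that include Niban3 and Ano2. The members were selected on their own UMI counts of a few marker genes. They were nuclei with at least 500 unique molecular identifiers (UMIs, counted RNA molecules), at most 5% mitochondrial UMIs, at least 1 UMI of Prox1 and at most 1 UMI of Gad1 and Gad2 together. Members also held at least 2 UMIs over the 5 genes Niban3, Ano2, Tcerg1l, Myo5b and Otof, called set A, and more UMIs of set A than of each of 3 other sets. Those sets were B (Ror2, Itga11, Gcnt4, Tspan18 and Col11a1), C (Bdnf, Robo3, Serinc2 and Smad3) and D (Trabd2b, Deptor, Smo and Rspo3). The rule found 2282 members among 20216 nuclei that passed the Prox1 and Gad filter (11.3%) and among 55863 nuclei in all. The same gating on B, C and D gave 2006, 5141 and 2549 nuclei.

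All rats were male Sprague Dawley animals, and those with surgery were about 8 to 15 weeks old at that time. Their dentate gyrus was taken from the operated side 3 weeks after the injury or sham procedure. TBI rats had a craniectomy and, 3 days later, a moderate lateral fluid percussion injury, in which a fluid pulse strikes the exposed dura. Sham rats were operated on but received no pulse, and the naïve rat was left unoperated, so it has no time after injury. The snRNA-seq libraries came from 2 TBI rats, 1 sham rat and 1 naïve rat, with 1 library per rat. The sham and naïve rats were pooled as the control, which follows the study. Bulk RNA sequencing covered 3 other sham rats and 3 other TBI rats.

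Prox1 encodes the homeobox factor that sets and keeps granule neuron identity, and Gad1 and Gad2 encode the enzymes that make GABA. Niban3 belongs to a small family of cytoplasmic proteins, Ano2 encodes a calcium-activated chloride channel, Tcerg1l a homologue of a transcription elongation regulator, Myo5b a motor that carries recycling vesicles with Rab11, and Otof the ferlin otoferlin, a calcium sensor of vesicle release in hair cells. Trhr encodes the receptor for thyrotropin-releasing hormone, which signals through Gq and phospholipase C, and it is known as a marker of granule neurons toward the ventral end of the rodent dentate gyrus, whereas Lct marks the dorsal end.

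Promoter sequence was available for 4 of the 5 genes of set A, at 6 start sites. The 3 genes with a single listed start are shown because they define the nuclei and differ in base composition. Each sequence is from RefSeq on build GRCr8, runs 5′ to 3′ on the plus strand, and covers 250 bases before to 50 bases after the start. They lie at chr16:18340953-18341252 for Niban3, chr6:31647664-31647963 for Otof and chr18:70313726-70314025 for Myo5b. Capitals mark the E-box CAGATG read on either strand (CATCTG on the other), which 16.6% of 33469 promoters of the same length hold.
Niban3: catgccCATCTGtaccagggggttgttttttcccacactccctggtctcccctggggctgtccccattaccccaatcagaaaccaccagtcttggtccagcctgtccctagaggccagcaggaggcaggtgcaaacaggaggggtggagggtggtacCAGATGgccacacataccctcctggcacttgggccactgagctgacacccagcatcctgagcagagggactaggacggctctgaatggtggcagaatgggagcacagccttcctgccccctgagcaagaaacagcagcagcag
Otof: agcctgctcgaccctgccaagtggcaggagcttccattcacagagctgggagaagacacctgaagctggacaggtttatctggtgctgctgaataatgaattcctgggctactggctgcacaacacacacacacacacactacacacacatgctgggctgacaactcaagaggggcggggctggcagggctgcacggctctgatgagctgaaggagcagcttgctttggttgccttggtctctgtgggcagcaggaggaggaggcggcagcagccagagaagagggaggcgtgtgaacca
Myo5b: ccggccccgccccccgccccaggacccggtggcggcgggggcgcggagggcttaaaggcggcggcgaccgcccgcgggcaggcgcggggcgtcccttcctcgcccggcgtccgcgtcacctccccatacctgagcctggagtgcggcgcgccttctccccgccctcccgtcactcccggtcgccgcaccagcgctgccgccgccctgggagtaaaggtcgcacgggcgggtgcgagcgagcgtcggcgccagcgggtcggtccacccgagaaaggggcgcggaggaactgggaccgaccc
The Niban3 promoter held 2 such E-boxes, and those of Otof and Myo5b held none. None of these 3 promoters held the cAMP response element TGACGTCA, the AP-1 site TGACTCA or the Egr site GCGTGGGCG on either strand, which 1.83%, 4.63% and 0.544% of promoters hold. The Myo5b promoter was 78.7% G and C with 47 CpG dinucleotides, against 60.0% and 1 for Niban3 and 58.0% and 5 for Otof, and the median over all promoters was 51.7% G and C. Ano2 has 3 listed starts, whose sequences are not shown. At these, 2 of the promoters held the E-box and 1 the AP-1 site. With the start of Niban3, 4 of the 6 starts of set A held a motif, and 3 of them are starts of Ano2. The share of all promoters that hold any of these motifs was not counted. A match or its absence describes these letters in this window and nothing about a factor.

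TBI replicates 1 and 2 gave 748 and 370 members, the sham rat 482 and the naïve rat 682. Their members held 2411884, 831336, 1219136 and 2560177 UMIs, so single genes are measured least precisely in TBI replicate 2. The median member held 2825, 1994, 2362 and 3248 UMIs in that order, and the median of the other Prox1 nuclei was 2436, 1760.5, 2062.5 and 2825. Members were thus deeper than the pooled other Prox1 nuclei in 4 of 4 rats, which a rule with a minimum of UMIs favours. The medians of nuclei gated on B were 2807, 2054, 2493 and 3263 UMIs, above members except in TBI replicate 1. The medians of nuclei gated on C and on D were below members in 4 of 4 rats. The libraries shared 321 cell barcodes between any pair, 2 of them among members.

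Among the genes that chose the members, Niban3 was at 101 and 156 CPM (a gene's UMIs scaled to a fixed total of all UMIs of the class) in TBI replicates 1 and 2, 101 for the sham rat and 136 for the naïve rat. In the other Prox1 nuclei it was at 14.4, 6.54, 9.36 and 15.1 CPM. Ano2 was at 159, 167, 211 and 168 CPM in members and 26.1, 15.6, 27.9 and 20.8 in the others. Set A was chosen to be high here, so these gaps are a description. Tcerg1l lay between 182 and 254 CPM in members and between 25.9 and 42.8 in the others. Myo5b lay between 732 and 849 CPM in members and between 102 and 157 in the others. Otof was at 109 and 183 CPM in members of the TBI rats, 124 for the sham rat and 60.2 for the naïve rat, and between 13.7 and 27.4 in the others. Prox1 itself differed little by class, with 542, 748, 605 and 537 CPM in members and 564, 780, 632 and 569 in the others. For both classes the highest Prox1 level was in TBI replicate 2, the shallowest library. Col11a1 of set B was at 115, 39.7, 157 and 177 CPM in members and 75.4, 50.3, 137 and 102 in the others. Its median log2 ratio was 0.41, and those of the other genes of sets B, C and D ran from −2.04 to −0.54.

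**Figure D1:**
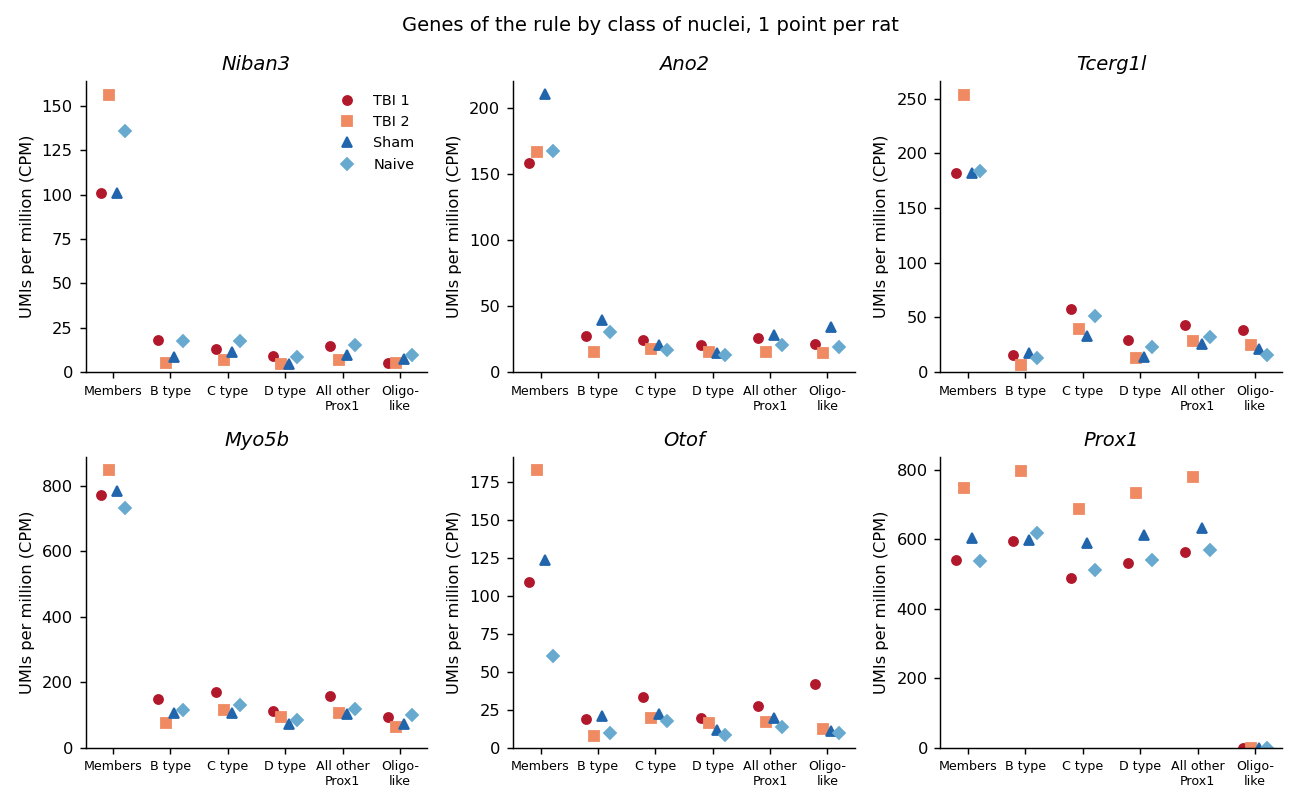
CPM of the 5 genes of set A and of Prox1 by class of nuclei, with 1 point per rat: members, nuclei gated on sets B, C and D, all other Prox1 nuclei, and nuclei led by oligodendrocyte markers. Every gene of set A is highest in members, as the rule requires, and Prox1 is alike in the Prox1 classes and at 0 in the oligodendrocyte-like class, which was gated on its absence.

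The oligodendrocyte-like nuclei serve as a class in which granule neuron genes should be low. Their median depth was 1051, 747, 1158 and 1194.5 UMIs in TBI replicates 1 and 2, the sham rat and the naïve rat. At least 1 UMI of Niban3 was found in 0.692%, 0.442%, 1.14% and 1.49% of them, and in 26.2%, 25.4%, 21.0% and 35.8% of members. In the other Prox1 nuclei the share was 3.8%, 1.25%, 2.03% and 4.21%. In CPM, Niban3 was at 4.91, 5.32, 7.49 and 9.62 in the oligodendrocyte-like nuclei, against 14.4, 6.54, 9.36 and 15.1 in the other Prox1 nuclei. The remaining genes of set A are also given in CPM. In the oligodendrocyte-like nuclei Ano2 was at 20.9, 14.2, 34.2 and 19.2 CPM, against 26.1, 15.6, 27.9 and 20.8 in the other Prox1 nuclei. Otof was at 41.8, 12.4, 10.7 and 9.62 CPM against 27.4, 17.1, 19.3 and 13.7. Ano2 was higher in the oligodendrocyte-like class in the sham rat and Otof in TBI replicate 1. Tcerg1l was at 38.1, 24.8, 21.4 and 16.0 CPM against 42.8, 28.1, 25.9 and 32.4, and Myo5b at 93.4, 63.9, 73.8 and 101 against 157, 105, 102 and 117, lower in the oligodendrocyte-like class in 4 of 4 rats.

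Members differed in how many genes of set A they held. In all, 1763 of the 2282 held at least 2 of the 5 genes and 729 held at least 3, while 434 entered on Myo5b alone. Myo5b supplied 58.4%, 52.8%, 55.9% and 57.2% of the set A UMIs in TBI replicates 1 and 2, the sham rat and the naïve rat, as a share of counts and not as a level per length. Niban3 supplied 7.65%, 9.72%, 7.20% and 10.6%. Otof supplied 4.70% in the naïve rat and between 8.24% and 11.4% in the other 3 rats. The most frequent number of set A genes in a member was 2 in every rat, in 43.7% to 48.6% of members.

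At the edge of the rule, 575 members held exactly 2 UMIs of set A, with a median of 2402, 1795, 2077 and 2738 UMIs in all in TBI replicates 1 and 2, the sham rat and the naïve rat. Nuclei just outside, with 1 UMI of set A and none of B, C or D, numbered 98, 101, 127 and 71, with a median of 1678.5, 1523, 1775 and 2359 UMIs. A second group outside had set A tied with the highest other set, and numbered 262, 109, 159 and 216 nuclei. Trhr was at 30.0, 8.55, 33.4 and 41.2 CPM in the members with 2 UMIs. It was at 16.7, 6.56, 29.7 and 6.2 CPM in the nuclei with 1 UMI, and at 17.0, 40.2, 30.4 and 41.2 in the tied nuclei. Each of these values rests on 33 UMIs or fewer, and the order of the 3 groups differed between rats.

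The label of a granule neuron type was read against marker lists. Of 10 markers of granule neuron identity 9 were in the matrices, and 1 had no UMI in members. Slc17a7, the vesicular glutamate transporter of these cells, was at 476, 478, 323 and 568 CPM, and Calb1, the calcium buffer calbindin, at 56.8, 42.1, 59.1 and 88.7. Calb1 was higher in members than in the other Prox1 nuclei of the same rat in 4 of 4 rats (median log2 ratio 0.41). Stxbp6, a SNARE-binding protein, was lower in 4 of 4 rats (−0.85), and so was Plk5, a polo-like kinase (−0.71). C1ql2 and C1ql3, secreted synaptic proteins of granule neurons, had medians of −0.25 and 0.03 without a shared sign. Prox1 was required by the rule, so it is left out of the sum of the list. The other 8 markers summed to 1262, 1229, 1065 and 1304 CPM in members, below the 1501, 1640, 1527 and 1665 CPM of the other Prox1 nuclei in 4 of 4 rats. Outside the Prox1 filter they summed to 1178, 1290, 1215 and 1211 CPM, above members in TBI replicate 2 and the sham rat. Apart from Prox1, the summed list thus did not set members apart from nuclei outside the filter.

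The 8 markers of immature granule neurons summed to 127, 105, 96.8 and 130 CPM in members of TBI replicates 1 and 2, the sham rat and the naïve rat, against 112, 119, 92.7 and 138 in the other Prox1 nuclei. Members were higher in TBI replicate 1 and the sham rat and lower in the other 2 rats. Bhlhe22, a transcription factor gene, was the most abundant on the mean of the 4 rats, at 61.8, 65.0, 38.6 and 83.6 CPM. Sox11 had 4, 0, 0 and 0 UMIs in members in the same order, Eomes 0, 0, 1 and 0, and Dcx, the doublecortin of young neurons, 96, 11, 52 and 63. Of the markers of hilar mossy and pyramidal neurons, Drd2 had 1, 3, 0 and 0 UMIs and Fibcd1 had 1, 0, 1 and 0. The most abundant of that list on the mean of the 4 rats was Rspo2, at 60.5, 27.7, 68.1 and 36.7 CPM in members against 67, 41.7, 64.9 and 42.5 in the other Prox1 nuclei. Lct, the dorsal marker, had 2 UMIs in members of TBI replicate 1 and 0 in the other 3 rats, where 3 UMIs is the limit that a count of 0 allows. It was also near 0 in the other Prox1 nuclei, at 0.40, 0.11, 0.90 and 0.48 CPM, so its low count does not mark members.

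Markers of other cells were also measured in members. The 8 oligodendrocyte markers summed to 493, 523, 481 and 314 CPM in TBI replicates 1 and 2, the sham rat and the naïve rat, against 632, 919, 620 and 494 in the other Prox1 nuclei and 775, 1150, 701 and 652 outside the Prox1 filter. Mbp was the most abundant of them in both TBI rats and St18 in the sham and the naïve rat, and none was at 0. The 10 microglial markers summed to 39.4, 52.9, 10.7 and 35.5 CPM in members, with Csf1r the most abundant on the mean of the 4 rats. Both TBI rats lay above both controls in these 2 sums. The 8 astrocyte markers summed to 381, 518, 239 and 613 CPM, where the groups overlapped. GABAergic markers summed to 296, 241, 333 and 156 CPM, with Adarb2 the most abundant, and oligodendrocyte precursor markers to 456, 392, 401 and 370, of which Tnr was the most abundant. Endothelial markers summed to 37.3, 32.5, 41.8 and 23.4 CPM with Mecom at 0, and pericyte markers to 11.2, 6.01, 16.4 and 9.76 CPM with Kcnj8 at 0. Nuclei with 2 or more UMIs of these non-neuronal markers made up 83.8%, 45.7%, 68.9% and 63.8% of members and 82.1%, 56.6%, 71.1% and 61.2% of the other Prox1 nuclei. The part of this other RNA in the results was not tested. Without such nuclei, the tests of gene levels given below also called 0 genes.

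Members were then set beside the other Prox1 nuclei of the same rat. This is the contrast the rule made, so no test is given. Of 6349 genes outside the rule with at least 20 CPM in every rat in members or in the other Prox1 nuclei, 1256 (19.8%) were higher in members in 4 of 4 rats and 1134 (17.9%) were lower, and the median log2 ratio over all 6349 was 0.0043. Of the genes that shared a sign, 32 reached a median log2 ratio of 1 and 22 reached −1.

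Rab3b, a Rab3 GTPase of vesicle exocytosis, was furthest above. It was at 85.0, 69.8, 83.7 and 123 CPM in members of TBI replicates 1 and 2, the sham rat and the naïve rat and at 25.5, 11.4, 20.4 and 24.3 in the other Prox1 nuclei. Its median log2 ratio was 2.19, which is 4.56-fold, with a range of 1.74 to 2.62. Every member value was above every value of the other class. Bace2, a protease related to the beta-secretase, followed at 74.6, 34.9, 64.8 and 78.1 CPM against 29.5, 4.74, 18.7 and 18.5 (median log2 ratio 1.94). Efnb2, the ephrin-B2 ligand of Eph receptors, was at 58.9, 63.8, 82.8 and 71.5 CPM against 30.5, 14, 25.1 and 18.3 (1.85). For Bace2, Efnb2 and the next gene, Cpne7, the narrowest gap was in TBI replicate 1.

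Cpne7, a calcium-dependent membrane-binding copine, lay between 132 and 156 CPM in members and between 28.3 and 69.4 in the others (median log2 ratio 1.77). Pdzrn4, a ring-finger protein with PDZ domains, lay between 51.7 and 91.0 CPM against 15.5 to 27.6 (1.72). Trhr had a median log2 ratio of 1.6. After it came the kinase gene Stk32b (1.55), the phosphatase gene Ptpn14 (1.53) and Car10, a carbonic anhydrase-related protein that binds neurexins (1.44). Car10 was at 491, 491, 524 and 496 CPM in members, a narrow range over the 4 rats, and at 237, 176, 199 and 133 in the others.

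Tpd52l1 (1.38), the extracellular protease gene Adamts9 (1.37) and the adhesion receptor gene Tenm4 (1.31) came next. Ramp1, an accessory subunit of the CGRP receptor (1.30), Osbpl10, an oxysterol-binding protein (1.27), and Ptger3, a prostaglandin E2 receptor (1.25), completed the 15. Compared with the nuclei gated on B, on C and on D in turn, all 15 were higher in members in 4 of 4 rats. The smallest of these median log2 ratios was 0.64, for Ptger3 against B, and Adamts9 against B stood at 0.74.

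**Figure D2:**
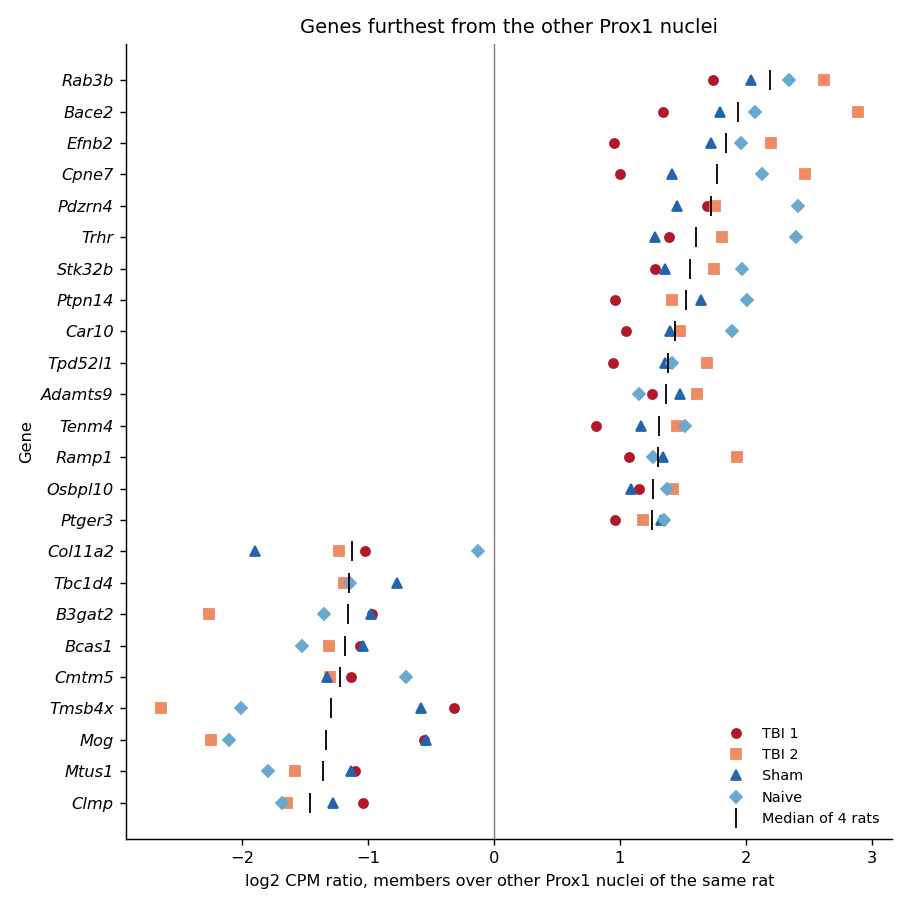
log2 ratio of CPM in members over the other Prox1 nuclei of the same rat for the 15 genes with the highest and 9 of the 10 with the lowest median, with 1 point per rat and a bar at the median. Rab3b leads at a median of 2.19 and Clmp is lowest at −1.46, and all 4 points of each gene lie on one side of 0 because the choice of genes requires it.

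At the other end, Clmp, an adhesion molecule of the immunoglobulin family, was at 78.4, 78.2, 59.1 and 37.9 CPM in members and at 161, 246, 144 and 122 in the other Prox1 nuclei, a median log2 ratio of −1.46. No member value reached a value of the other class. Mtus1, a microtubule-associated protein (−1.36), B3gat2, a glucuronyltransferase (−1.16), and Tbc1d4, a Rab GTPase-activating protein (−1.15), were also lower. Clmp, Mtus1, B3gat2 and Tbc1d4 were lower in members than in the nuclei gated on B, on C and on D in 4 of 4 rats each. For the other 6 genes this was not so. Mog (−1.33) and Bcas1 (−1.19) are genes of myelin and oligodendrocytes, Cmtm5 (−1.22) is also known from them, and Tmsb4x (−1.29) encodes an actin-binding peptide found in many cells. Against the B type, Mog stood at −0.03 and Bcas1 at −0.78. Col11a2 (−1.13) encodes a collagen chain. The other Prox1 nuclei include 8238 nuclei gated on no set, and summed oligodendrocyte markers were higher in the other Prox1 nuclei than in members in 4 of 4 rats, as given above. The part of these nuclei in the lower genes was not tested.

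Channels and receptors were read from fixed lists in the same way, with the 19.8% and 17.9% of all genes as the base. Of 22 potassium channel genes at or above 20 CPM, 10 were higher in members in 4 of 4 rats and 3 were lower (median log2 ratio 0.20). Kcnk2, a two-pore leak channel, stood at 0.85, with 120, 198, 91.0 and 134 CPM in members and 68.7, 97.1, 55.0 and 71.6 in the others. The most abundant was Kcnma1, the large-conductance calcium-activated channel, at 1971, 1982, 2161 and 1596 CPM in members. Of 13 sodium, calcium and HCN channel genes 6 were higher and 2 lower. Cacna1g, a T-type calcium channel, stood at 0.40 and Cacna1d, the most abundant, at 0.03.

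GABA-A receptor subunits had 7 of 11 genes higher in 4 of 4 rats and 2 lower, with a median of 0.18. Gabra3 stood at 0.96, with 43.5, 78.2, 62.3 and 69.1 CPM in members and 34.6, 34.3, 36.4 and 31.4 in the others, and Gabrg3 at 0.72. Glutamate receptors had 6 of 18 higher and 6 lower, with a median of −0.0065. Grm3, a group II metabotropic receptor, was lower at −0.92, with 224, 212, 332 and 226 CPM against 388, 527, 627 and 428, and Grm8 was lower at −0.83. Gria4, an AMPA receptor subunit, was higher at 0.28. In axon guidance and adhesion genes, 11 of 25 were higher and 9 lower, with a median of −0.03. Besides Tenm4, the contactin genes Cntn3 (0.71) and Cntn4 (0.68) were higher in 4 of 4 rats, and the Eph receptor genes Epha5 (−0.71) and Epha7 (−0.62) lower.

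Proteins close to Trhr, Ano2, Otof and Myo5b in function gave a mixed picture. Of 14 genes of Gq and phospholipase C signalling at or above 20 CPM, 2 were higher and 7 lower. The diacylglycerol kinase genes Dgkg (0.94) and Dgkb (0.67) were the 2 higher. Dgkg was at 1059, 1085, 1029 and 1026 CPM in members and 709, 557, 535 and 539 in the others. Itpr1, the inositol trisphosphate receptor (−0.82), and Prkcb, a protein kinase C (−0.76), were lower. Of 4 genes of the TRH system at or above 20 CPM, 2 were higher, Trhr and Pcsk2. Pcsk2, a prohormone convertase, stood at 0.40, and Trhde, the enzyme that degrades the hormone, was at 67.2, 54.1, 65.6 and 31.2 CPM in members and 62.4, 89.6, 84.9 and 45.6 in the others. Of the other anoctamins, Ano10 was higher (0.45) and Ano4 lower (−0.81), and Ano3, the most abundant, stood at 0.01. Myo5a, the myosin V of dendrites, was higher in members in 4 of 4 rats at 0.35, and Syt7, a synaptotagmin, was lower at −0.48.

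The share of members was compared between conditions, which asks whether this type was more or less frequent 3 weeks after injury. Members made up 14.7% (exact Clopper-Pearson 95% interval 13.7% to 15.7%) and 7.87% (7.12% to 8.68%) of Prox1 nuclei in TBI replicates 1 and 2. They made up 8.98% (8.23% to 9.78%) in the sham rat and 13.5% (12.6% to 14.5%) in the naïve rat. Each group had a high and a low rat, and the groups overlapped. TBI rats averaged 11.3% ± 4.82 and controls 11.2% ± 3.19 (SD, n = 2 each), a difference of 0.041 percentage points (exact permutation test, two-sided, p = 1, where 2 rats against 2 cannot go below 0.33). Without the naïve rat the difference was 2.30 percentage points and without the sham rat −2.21, and without TBI replicate 1 and 2 it was −3.37 and 3.45.

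The 2 rats with the most UMIs per nucleus also had the highest shares. After each nucleus was thinned to 1000 UMIs, which left out 1655, 3698, 1852 and 857 shallower nuclei of all that passed the first 2 limits in TBI replicates 1 and 2, the sham rat and the naïve rat, the shares were 7.67%, 5.09%, 4.90% and 5.97%. The difference was then 0.94 percentage points (exact permutation test, two-sided, p = 0.667), with TBI replicate 2 between both controls. Intervals cover counting error only.

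**Figure D3:**
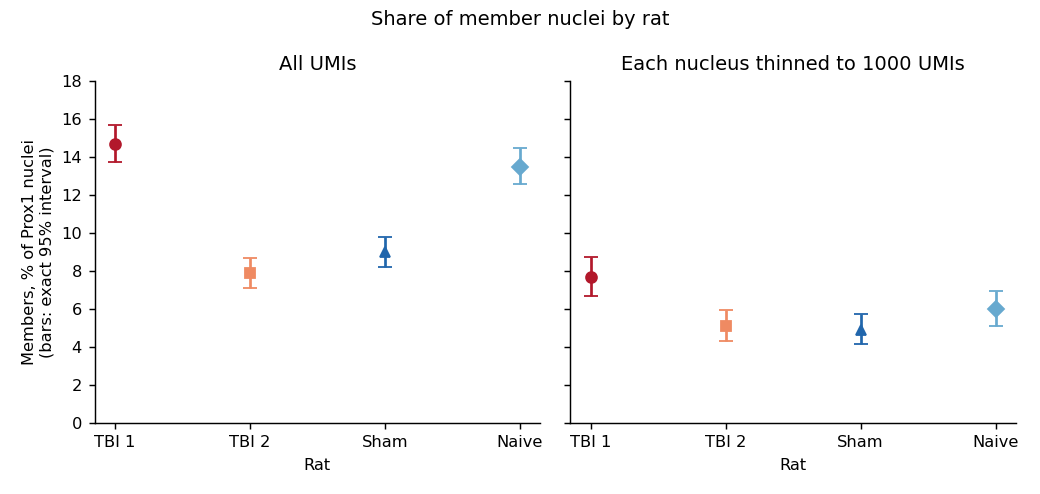
Members as a percent of Prox1 nuclei in each rat, at full depth on the left and with each nucleus thinned to 1000 UMIs on the right, with exact 95% binomial intervals. At full depth the TBI rats stand at 14.7% and 7.87% around the controls at 8.98% and 13.5%, and at equal depth all 4 rats lie between 4.90% and 7.67%.

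Gene levels in members were compared between 2 TBI rats and 2 controls on UMIs summed per rat. The quasi-likelihood test of edgeR, adjusted over all genes tested, called 0 of 10252 genes (0%) at an FDR of 0.05. No FDR was under 0.999, and 323 genes (3.15%) had an unadjusted p under 0.05, 202 of them higher and 121 lower in TBI. DESeq2 called 1 gene, which carries no gene symbol. The edgeR count was 61 with no filter on low counts, and it was 1, 18, 15 and 64 without the naïve rat, the sham rat, TBI replicate 1 and TBI replicate 2 in turn, so it rests on which rats are included. The median log2FC of all genes was 0.00093. Both TBI rats lay above both controls for 2121 genes (20.7%) and below both for 1176 (11.5%). No value of these 4 rats tells whether the sham and the naïve rat may be pooled, since each is alone in its group.

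The genes that came closest, among those with a symbol whose groups did not overlap, are given with their levels. Agap2, a GTPase that enhances phosphoinositide 3-kinase, was at 152 and 166 CPM in TBI replicates 1 and 2, 89.4 for the sham rat and 68.4 for the naïve rat. Both TBI rats were above both controls, with a log2FC of 0.98 ± 0.21 (SE) and FDR = 0.999 by edgeR. In the other Prox1 nuclei of the same rats the log2FC was 0.80. Rab3c, a Rab3 GTPase of synaptic vesicles, was at 181 and 160 CPM in TBI, 276 for the sham rat and 293 for the naïve rat, with a log2FC of −0.78 ± 0.17. Agrn, the proteoglycan agrin, was at 63.0 and 55.3 CPM in TBI against 24.6 and 26.2, with a log2FC of 1.18 ± 0.27.

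Ddn, the postsynaptic protein dendrin, was at 50.6 and 55.3 CPM in TBI against 23.0 and 21.5 in the sham and the naïve rat (log2FC 1.20 ± 0.29). Celsr3, an atypical cadherin of axon tracts, was at 56.0 and 78.2 CPM against 32.0 and 28.9 (1.08 ± 0.28), and Camkk1, a kinase upstream of the CaM kinases, at 86.2 and 69.8 against 38.6 and 43.0 (0.90 ± 0.24). In each of these 3 genes both TBI rats were well above both controls. In the other Prox1 nuclei of the same rats the log2FC was 0.94 for Ddn, 0.58 for Celsr3 and 0.58 for Camkk1, and it was 0.73 for Agrn, 0.74 for Mast3 and −2.09 for Stab2. None of these differences between TBI and control is shown to be particular to members. Tnks1bp1, Mast3, Rreb1 and Reep2 were also higher in both TBI rats, with a log2FC of 0.94, 0.76, 0.74 and 1.06. With nuclei of 2 or more UMIs of non-neuronal markers left out, the log2FC was 0.45 for Camkk1 and 0.43 for Mast3. Stab2, a scavenger receptor best known from endothelium, had 8, 1, 28 and 28 UMIs in members of TBI replicates 1 and 2, the sham rat and the naïve rat (log2FC −2.65 ± 0.68). Rps28, a ribosomal protein gene with many near-identical copies whose counts are uncertain, was at 47.3 CPM in TBI replicate 1 and between 3.12 and 10.8 in the other 3 rats. Its log2FC was 2.55, and with 1 rat left out it ran from 1.02 without TBI replicate 1 to 3.26 without the sham rat. With no filter on low counts, Agap2, Rab3c, Mast3, Stab2 and Rps28 were among the genes that passed the FDR.

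Of these 12 genes, which were chosen for not overlapping between groups, 10 were higher and 2 lower in TBI. Over all genes tested in members, 20.7% had both TBI rats above both controls and 11.5% had both below.

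**Figure D4:**
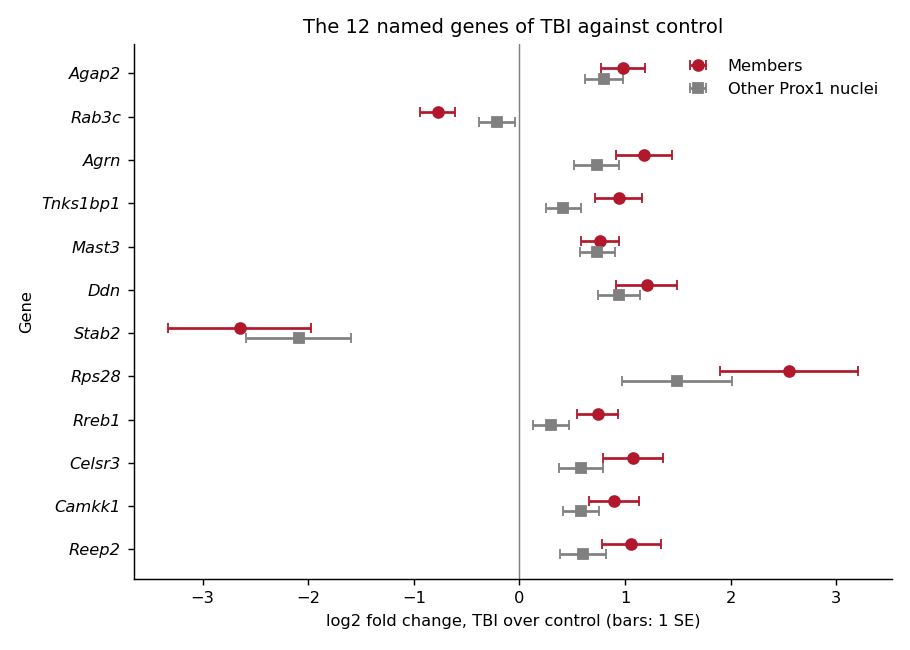
log2 fold change of TBI over control for 12 genes, with bars of 1 standard error, in members and in the other Prox1 nuclei. They have the smallest p in members among genes with a symbol whose groups did not overlap. In members, 10 genes lie above 0 and Rab3c and Stab2 below it, and both classes come from the same 4 rats. Over all genes tested in members, 20.7% had both TBI rats above both controls and 11.5% had both below.

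Of 319 genes in 25 fixed lists, 212 were tested in members, 13 had an unadjusted p under 0.05 and 0 passed the FDR. Over all genes tested in members, 3.15% had an unadjusted p under 0.05 by edgeR. The lists are read here by how many tested genes had both TBI rats above, or below, both controls, with 20.7% and 11.5% of all genes as the base. The TRH system had 0 of 6 above and 2 below, Trhr and the prohormone convertase gene Pcsk1, with a median log2FC of −0.38. Sodium, calcium and HCN channels had 7 of 13 above and 0 below, with a median log2FC of 0.12. Cacna1h, a T-type calcium channel, was at 108 and 117 CPM in TBI against 87.8 and 69.9 (log2FC 0.48). Potassium channels had 8 of 23 above and 3 below (median 0.09), and Kcnh1 was at 342 and 346 CPM against 288 and 252. Gq and phospholipase C genes had 6 of 14 above and 1 below (median 0.20), with Itpr2 at 46.4 and 65.0 CPM against 32.8 and 31.2. Glutamate receptors had 4 of 20 above and 2 below (median 0.05), and GABA-A receptors 0 of 12 above and 3 below (median −0.15).

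Axon guidance and adhesion genes had 5 of 25 above and 6 below (median −0.13). Cntn4 was at 325 and 365.7 CPM in TBI against 451 and 475 in the sham and the naïve rat (log2FC −0.47). Ferlins and vesicle release genes had 2 of 14 above and 1 below (median 0.03), with Syt7 at 287 and 310 CPM against 231 and 175. Anoctamins had 2 of 5 above and 2 below (median 0.12), and myosin V and Rab11 genes 1 of 9 above and 0 below (median −0.07). Neuropeptides and their receptors had 1 of 12 above and 1 below (median −0.25). The gene above was Oprd1, the delta opioid receptor, at 58.0 and 78.2 CPM against 41.0 and 43.0, and the gene below was Trhr.

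Activity and injury genes gave little to measure in these nuclei. Only 4 of 15 immediate-early genes passed the filter on low counts, with 1 above and 0 below (median 0.15). Homer1 was at 136 and 154 CPM in TBI against 171 and 139. Of 12 injury response genes 7 were tested, with 0 above and 0 below (median −0.13). Nefl, the light neurofilament, was at 73.4 and 65.0 CPM in TBI against 72.2 and 138, where the naïve rat stands apart from the sham rat. Complement and interferon genes had 2 of 6 above and 1 below (median 0.37), and B2m was at 27.8 and 21.7 CPM against 13.1 and 25.8, where the groups overlapped. Granule identity genes had 0 of 6 above and 1 below, which was Calb1 (log2FC −0.61), at 56.8 and 42.1 CPM against 59.1 and 88.7.

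Among the marker lists of other cells, oligodendrocyte markers had 2 of 8 above and 1 below with a median of 0.79. Mbp, myelin basic protein, was at 205 and 236 CPM in TBI against 162 and 93.0. Astrocyte markers had 0 of 7 above and 0 below (median −0.05), and 1 of the 2 microglial markers tested lay above. Oligodendrocyte precursor markers had 1 of 4 above and 0 below. GABAergic markers had 0 of 4 on either side, as did the 8 markers of hilar mossy and pyramidal neurons tested. Immature granule neuron markers had 1 of 3 above, endothelial markers 1 of 2 above, and the 1 pericyte marker tested lay below.

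The difference between the injury effect in members and that in the other Prox1 nuclei was tested as an interaction within rats. edgeR called 0 of 13132 genes (0%) at an FDR of 0.05, with 476 (3.62%) at an unadjusted p under 0.05. Leaving out the naïve rat, the sham rat, TBI replicate 1 or TBI replicate 2 gave 0, 10, 3 and 14 genes. Rab3c came closest, with an interaction log2FC of −0.62 ± 0.12 and FDR = 0.0870. It was −0.35 (FDR = 1) without the naïve rat, −0.81 (FDR = 0.000777) without the sham rat and −0.57 (FDR = 0.0170) without TBI replicate 2, by edgeR. With no filter on low counts it was −0.61 (FDR = 0.00956), and with Myo5b left out of set A −0.85 (FDR = 0.00228), so its call rests on the rats and settings used. In the sham and the naïve rat it was at 276 and 293 CPM in members and 198 and 149 in the others. In TBI replicates 1 and 2 it was at 181 and 160 CPM in members and 161 and 156 in the others. Members were above the other class in 4 of 4 rats, by a wide margin in both controls and by a narrow one in both TBI rats.

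Jph1, a junctophilin that ties the plasma membrane to the endoplasmic reticulum, was at 219 and 255 CPM in members of the TBI rats and at 192 and 136 in the controls, while the others were at 239, 333, 299 and 249 (interaction log2FC 0.54 ± 0.12, FDR = 0.114 by edgeR). Slit2, an axon guidance ligand, was at 405, 415, 530 and 420 CPM in members and 383, 295, 373 and 227 in the others (−0.44 ± 0.11, FDR = 0.403). Its interaction was −0.18 (FDR = 0.942) without TBI replicate 1, −0.24 (FDR = 1) without the naïve rat, −0.58 (FDR = 0.0379) without the sham rat and −0.61 (FDR = 0.000658) without TBI replicate 2, by edgeR. Jph1 passed the FDR without the sham rat (0.68), without TBI replicate 2 (0.65) and with no filter on low counts (0.55). Pex5l, which regulates HCN channel traffic (−0.48), Sulf1, an extracellular heparan sulfatase (−1.81), Synj2, an inositol phosphatase (−1.23), and Fhod3, a formin (−1.08), had a negative interaction, and Kctd17 (0.52) and Dnajb13 (0.59) a positive one. With nuclei of 2 or more UMIs of non-neuronal markers left out, the interaction was 0.056 for Dnajb13, −0.14 for Pex5l and −0.23 for Slit2. Dnajb13 was at 0.23 with Myo5b left out of set A and 0.36 without the naïve rat. Sulf1 had 11, 11, 26 and 61 UMIs in members and passed the FDR without the sham rat (−2.19). Fhod3 had 71, 4, 44 and 111 UMIs in members, and its interaction was −2.59 without TBI replicate 1 and −0.69 without the naïve rat. Fermt1, Mbd4 and Flacc1 also rest on few UMIs, with 3, 1, 12 and 8 UMIs in members for Fermt1, 17, 5, 0 and 4 for Mbd4 and 1, 0, 1 and 21 for Flacc1. Fermt1 passed the FDR without TBI replicate 2 and with no filter on low counts.

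Trhr was measured on 60, 25, 51 and 145 UMIs in members of TBI replicates 1 and 2, the sham rat and the naïve rat. It was at 24.9 and 30.1 CPM in the TBI rats, 41.8 for the sham rat and 56.6 for the naïve rat. Both TBI rats were below both controls. The log2FC was −0.93 ± 0.30 (SE) and FDR = 0.999 by edgeR, so it did not pass. Its direction held in every alternative fit of members, from −1.42 to −0.69.

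In the other Prox1 nuclei Trhr was at 9.51 and 8.69 CPM in the TBI rats, 17.4 for the sham rat and 10.7 for the naïve rat. In the oligodendrocyte-like nuclei it was at 13.5, 5.32, 19.3 and 11.2 CPM in the same order. The other Prox1 nuclei are thus near a class that should lack the gene, and the sham library was the highest in both. Members were above the oligodendrocyte-like class in 4 of 4 rats. The interaction log2FC was −0.38 ± 0.31 with FDR = 1 by edgeR, so a difference in injury effect between members and the other Prox1 nuclei was not detectable. Without the naïve rat it was 0.27.

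At least 1 UMI of Trhr was found in 7.35% and 6.49% of members of the TBI rats, 9.54% for the sham rat and 16.6% for the naïve rat. In the oligodendrocyte-like nuclei the share was 1.90%, 0.530%, 2.78% and 1.49%, and in the other Prox1 nuclei 2.58%, 1.62%, 3.56% and 2.95%. With members of 1000 UMIs or more thinned to 1000, the share was 2.15%, 2.75%, 3.33% and 5.88%, which rests on 16, 10, 16 and 40 nuclei. In the other Prox1 nuclei at the same depth it was 1.03%, 0.688%, 1.55% and 1.0%, highest in the sham rat. Where the rule itself was applied to the thinned nuclei, the share of members was 0.495%, 3.50%, 3.42% and 5.73%, on 1, 5, 5 and 10 UMIs of Trhr. TBI replicate 2 was then just above the sham rat, so the groups overlapped at equal depth in that version. Members that entered on Myo5b alone had Trhr at 23.1, 19.9, 37.9 and 47.4 CPM, and the rest had 25.2, 32.3, 42.9 and 58.1.

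**Figure D5:**
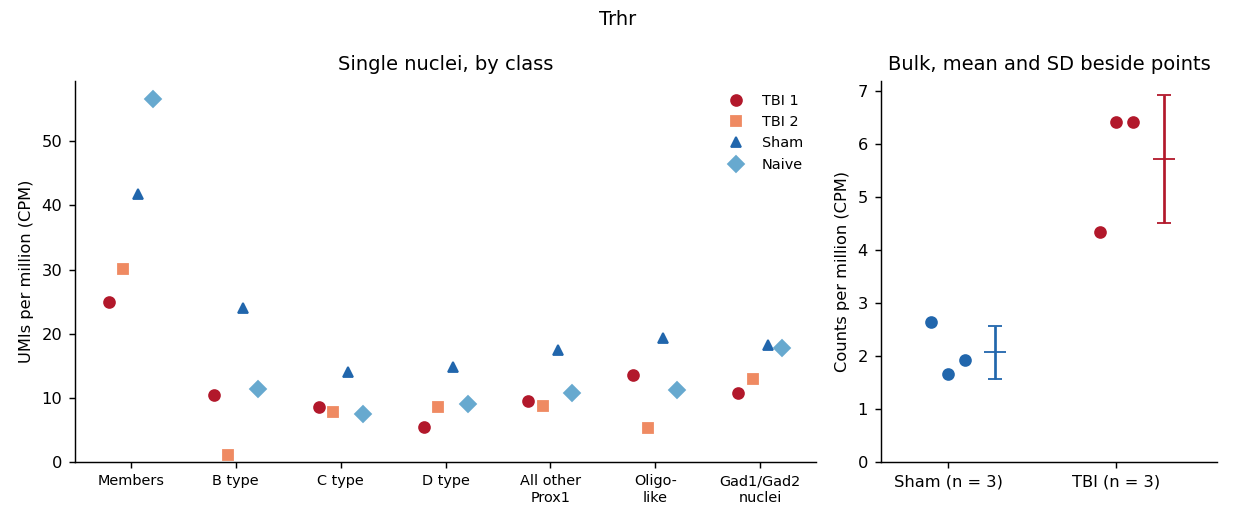
Trhr in single nuclei by class and rat on the left, in CPM of the class, and in bulk tissue on the right, in CPM of each library with mean and SD. Members stand above every other class in each rat, both TBI rats are below both controls in members, and in bulk all 3 TBI rats are above all 3 sham rats.

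Bulk RNA sequencing gave levels of the same genes in whole dentate gyrus, where fewer cells of a type and less RNA per cell cannot be told apart. Trhr was at 2.63, 1.65 and 1.91 CPM in sham replicates 1 to 3 and at 4.33, 6.40 and 6.41 in TBI replicates 1 to 3, so that every TBI rat was above every sham rat. Over all genes, 11.7% had all TBI rats above all sham rats and 3.05% had all below. TBI rats averaged 5.71 ± 1.20 CPM and sham rats 2.06 ± 0.51 (SD, n = 3 each), with a log2FC of 1.43 ± 0.28 (SE). Trhr had FDR = 0.193 by edgeR, which called 0 of 14077 genes (0%), with 1348 (9.58%) at an unadjusted p under 0.05. DESeq2 called 346 genes and gave Trhr FDR = 0.00197. The dates of the injury or sham procedure were split at the middle of the year into periods called spring and autumn here. The log2 difference (with 0.1 CPM added) was 1.02 in spring, with 2 sham rats and 1 TBI rat. It was 1.69 in autumn, with 1 sham rat and 2 TBI rats. With the period as a covariate the log2FC of Trhr was 1.34 and FDR = 0.615 by edgeR.

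Niban3 was at 1.37, 0.257 and 1.28 CPM in sham and at 4.93, 2.65 and 5.16 in TBI, again without overlap. Its log2FC was 2.08 ± 0.58 with FDR = 0.280 by edgeR and FDR = 0.0259 by DESeq2. Within periods its log2 difference was 2.80 for spring and 1.47 for autumn. In the summed Prox1 nuclei of the snRNA-seq rats, Niban3 had a log2FC of −0.19 ± 0.34 (FDR = 0.998 by edgeR). Of 14082 genes tested there, 0 (0%) passed the FDR and 432 (3.07%) had an unadjusted p under 0.05.

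The other genes of set A overlapped between groups in bulk. Ano2 was at 1.90, 3.67 and 2.10 CPM in sham and 4.49, 2.97 and 3.81 in TBI (log2FC 0.52 ± 0.33). With 1 rat left out, the log2FC of Ano2 ran from 0.34 without sham replicate 1 to 0.87 without sham replicate 2. Tcerg1l had a log2FC of 0.33 ± 0.48, Myo5b 0.18 ± 0.33 and Otof −0.30 ± 0.46. Prox1 was at 106, 25.6 and 16.0 CPM in sham and 76.0, 24.8 and 47.8 in TBI, a wider spread within groups than between them, which was not tested as a source of the other values. Of sets B, C and D, 12 of 13 genes were in the bulk table, with a log2FC between −0.29 and 0.45.

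Of the 15 genes highest in members, 13 had a bulk log2FC above 0, where the median of all genes was −0.0029, and 6 had every TBI rat above every sham rat, against 11.7% of all genes. Those 6 were Rab3b, Bace2, Efnb2, Trhr, Adamts9 and Ptger3. Rab3b was at 19.3, 23.0 and 14.9 CPM in sham and 26.4, 32.3 and 32.1 in TBI (log2FC 0.63 ± 0.17, FDR = 0.274 by edgeR). Efnb2 was at 20, 16.2 and 19.1 CPM in sham and 26.4, 27.5 and 34.9 in TBI (0.65 ± 0.14, FDR = 0.203). Bace2 was at 2.17, 3.45 and 5.31 CPM in sham and 6.91, 7.74 and 10.3 in TBI (1.13 ± 0.34, FDR = 0.316). In members of the snRNA-seq rats, 6 of the 15 genes had both TBI rats below both controls and 2 had both above, against 11.5% and 20.7% of all genes. Of the 10 genes lowest in members, 4 had a bulk log2FC above 0, and Clmp was at 62.4, 63.0 and 71.6 CPM in sham and 55.8, 53.3 and 52.9 in TBI (−0.32 ± 0.10, FDR = 0.33). In members of the snRNA-seq rats Clmp was higher in both TBI rats, at 78.4 and 78.2 CPM against 59.1 and 37.9.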

How the data were processed

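The snRNA-seq matrices hold UMI counts that the authors deposited after Cell Ranger on the rat genome Rnor 6.0 with exons and introns. Zeros stored in the matrices made up 1.63% and 27.4% of stored entries in TBI replicates 1 and 2, 11.1% for the sham rat and 15.5% for the naïve rat. No source used here states their origin, their part in the results was not tested, and they were read as 0. In all, 55401 nuclei passed the UMI and mitochondrial limits. UMIs were summed per rat and class and tested with the edgeR 4.0.16 quasi-likelihood test (TMM, filterByExpr, Benjamini-Hochberg over all genes tested outside the rule), with DESeq2 1.42.0 as an alternative, in R 4.3.3. The interaction had the rat as a block. Ratios of CPM had 0.5 UMIs added. No doublet caller was run. The nuclei of the oligodendrocyte-like class had at least 5 UMIs of oligodendrocyte markers and no Prox1.

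For bulk tissue, the deposited log2 CPM of 14166 genes were turned back into counts and rounded. The total of each library was solved from the same log2 CPM values (24730290 to 43912297 per library). The deposited estimated counts per transcript, which the authors made with kallisto, totalled 25121893 to 44649404 per library. UMIs per snRNA-seq library were 26451421 to 35330548. The deposited authors' table of animals was read for the dates of the injury or sham procedure of the bulk rats, which gave the periods.

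Members and gene lists were chosen with earlier results of these data known. Named genes were every gene of set A, Prox1 and Trhr; the 12 genes with the smallest p whose groups did not overlap, in members and in the interaction, passing over 3 and 1 without a symbol; and the 15 highest and 10 lowest in members with 1 sign in 4 of 4 rats. Of these, 1 of the 10 lowest is not reported here. Other genes named come from the fixed lists. The edgeR fits of members and of the interaction, and the DESeq2 fit of members, were tested on simulated counts. Simulated bulk counts were tested with the edgeR function of the snRNA-seq fits. The other steps were not tested in this way. Of the 319 list genes, 9 were not used here. Libraries of a group are single rats, and p-values measure the spread between them.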

Additional observations from a re-analysis of the deposited data

Results flagged for a closer look

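Trhr had opposite directions in the nuclei and in whole tissue, and neither passed the edgeR threshold. In members its log2FC was −0.93, with both TBI rats below both controls, and in bulk it was 1.43, with every TBI rat above every sham rat. In nuclei outside the Prox1 filter Trhr was at 13.8 and 8.69 CPM in the TBI rats, 18.3 for the sham rat and 14.7 for the naïve rat, and its log2FC was −0.81 over all Prox1 nuclei and −0.70 in the Prox1 nuclei outside the members. The bulk rats were other animals and the bulk control was sham alone. The sham rat of the snRNA-seq, at 41.8 CPM, was above both TBI rats in members. The difference between the 2 data sets was not tested.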

How the results depend on the processing

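The edgeR fits as designed called 0 genes in members, in the interaction and in bulk. In members, 61 genes were called with no filter on low counts (48 higher, 13 lower) and 1 by DESeq2, and 1 to 64 with 1 rat left out. In the interaction, 3 genes were called with no filter and 3 with Myo5b left out of set A, an alternative chosen after seeing the data, and 0 to 14 with 1 rat left out. The difference in share was −0.218 percentage points with 3 or more UMIs of set A, −0.247 without Myo5b, −0.689 with 2 or more UMIs of Prox1 and −0.168 as a share of all passing nuclei, and −3.37 to 3.45 with 1 rat left out, so its direction is not fixed. With 1 rat left out, the lone control or TBI rat is assumed to vary like the others.

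No paired analysis was possible because the TBI and control groups of the snRNA-seq share fewer than 2 replicate numbers. In bulk, same-numbered rats had correlations of 0.352, 0.173 and −0.030 between their deviations. Rats with different numbers had correlations from −0.276 to 0.109. Whether the numbers pair the rats was not tested. The fit with a replicate block called 79 genes, 77 of them higher. DESeq2 called 346 bulk genes, 336 higher, and leaving out 1 rat gave 0 to 1.

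Of 373 alternative values for 32 gene results, 346 kept their direction and side of the threshold, 21 passed it with the same direction and 6 reversed. The Fermt1 interaction reversed without Myo5b in set A (0.20). The others reversed with 1 rat left out, over which the Trhr interaction ran from −0.82 to 0.27, with 0.27 without the naïve rat, and bulk Tcerg1l from −0.038 without TBI replicate 3 to 0.71, Myo5b from −0.020 without TBI replicate 1 (−0.018 without sham replicate 3) to 0.58, and Otof from −0.70 to 0.10 without sham replicate 3. The causes were not tested. TBI replicate 2 held the fewest member UMIs and limits the depth of every comparison in members.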
